A study of Mus musculus with 6 samples.

Results

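The 9 loci described here are those at which ZBTB43 peaks lay over comparatively short perfect runs of alternating purines and pyrimidines, namely Src, Pcdh7, Itsn2, Spg11, Gpr160, Plekhh2, Hhat, Serpinb1b and Pdzd2. They were chosen by the peaks and tracts that had already been seen at them in these data, so the presence of a peak, its score and the length of its longest run are given as a description. A peak was counted for a locus when it overlapped a window reaching about 10 kb beyond each end of the annotated gene in the mouse genome build mm10 (GRCm38). These windows held 39 of the 3588 peaks in 4 peak lists. Of these, 10 of 897 peaks were in the list made with 491K cells against IgG, 13 of 2043 in the list with 491K cells against input, 7 of 18 in the list with 100K cells against IgG, and 9 of 630 in the list with 100K cells against input.

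The material was prospermatogonia, the male fetal germ cells, taken at 15.5 dpc from fetuses of C57Bl/6J females and OG2 males and sorted by flow cytometry for EGFP driven by the Oct4 (Pou5f1) transgene. All libraries carried that transgene (B6;CBA-Tg(Pou5f1-EGFP)2Mnn/J mice) and were labeled wild type and male, and none was a Zbtb43 mutant. The 6 chromatin immunoprecipitation libraries comprised ZBTB43 from 491K and 100K cells, IgG from 415K and 100K cells, and input from 491K and 100K cells, with 1 library in each group. Testes of several fetuses were pooled, and the larger sample combined batches of frozen cells. No difference between cell numbers or between controls could therefore be tested, the depth of each library was not given by the peak lists, and no error can be attached to a score, width or position.

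ZBTB43 is a zinc finger protein with a BTB domain, the protein-interaction domain of a large family of transcription factors. Purine–pyrimidine repeats (PPRs) are stretches in which purines (A, G) and pyrimidines (C, T) take turns. Such DNA, above all alternating CG and CA, can leave the usual right-handed helix and adopt the left-handed form called Z-DNA. Prospermatogonia are the stage at which the male germ line lays down its new DNA methylation pattern.

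The sequences of 6 loci are shown first because the loci differ in how their repeats are broken rather than in whether a repeat is present. Each is the stretch shared by the peaks over the IgG-controlled 491K peak of the locus, limited to 300 bases. At Spg11 it does not reach the smaller of the 2 input-controlled 100K peaks, since both were taken as 1 span. Capitals mark perfectly alternating runs of at least 10 bp. The letters are those of the reference genome, and the repeats of the fetuses themselves were not read. In the first set the runs were separated mostly by 1 base, which reads as a lone a on the plus strand at Src, Pcdh7 and Hhat and as a lone t at Spg11.
Src (chr2:157445167-157445405, plus strand): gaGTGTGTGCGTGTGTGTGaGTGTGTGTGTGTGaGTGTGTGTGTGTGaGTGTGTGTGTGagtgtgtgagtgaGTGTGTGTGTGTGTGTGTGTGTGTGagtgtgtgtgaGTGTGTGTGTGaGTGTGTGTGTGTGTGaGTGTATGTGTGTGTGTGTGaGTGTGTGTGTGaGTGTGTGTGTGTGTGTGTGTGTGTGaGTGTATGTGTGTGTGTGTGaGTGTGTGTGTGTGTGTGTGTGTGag
Pcdh7 (chr5:57759507-57759655, plus strand): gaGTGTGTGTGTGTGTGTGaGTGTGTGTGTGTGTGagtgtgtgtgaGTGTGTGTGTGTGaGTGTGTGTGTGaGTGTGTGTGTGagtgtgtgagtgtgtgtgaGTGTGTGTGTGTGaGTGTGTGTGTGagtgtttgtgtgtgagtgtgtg
Hhat (chr1:192670983-192671146, plus strand): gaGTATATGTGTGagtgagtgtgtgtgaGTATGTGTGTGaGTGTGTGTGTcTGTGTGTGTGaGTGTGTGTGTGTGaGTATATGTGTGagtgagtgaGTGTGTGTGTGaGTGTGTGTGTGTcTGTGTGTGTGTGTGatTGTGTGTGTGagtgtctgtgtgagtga
Spg11 (chr2:122079820-122080119, plus strand): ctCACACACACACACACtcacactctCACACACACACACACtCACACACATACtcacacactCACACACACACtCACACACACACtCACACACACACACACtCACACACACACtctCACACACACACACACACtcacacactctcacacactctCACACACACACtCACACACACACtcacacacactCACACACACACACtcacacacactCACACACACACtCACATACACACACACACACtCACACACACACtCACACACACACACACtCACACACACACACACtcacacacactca

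The second set shows different kinds of repeat. The Gpr160 runs were longer and were parted by a lone c, and the Pdzd2 stretch was rich in CG.
Gpr160 (chr3:30884280-30884579, plus strand): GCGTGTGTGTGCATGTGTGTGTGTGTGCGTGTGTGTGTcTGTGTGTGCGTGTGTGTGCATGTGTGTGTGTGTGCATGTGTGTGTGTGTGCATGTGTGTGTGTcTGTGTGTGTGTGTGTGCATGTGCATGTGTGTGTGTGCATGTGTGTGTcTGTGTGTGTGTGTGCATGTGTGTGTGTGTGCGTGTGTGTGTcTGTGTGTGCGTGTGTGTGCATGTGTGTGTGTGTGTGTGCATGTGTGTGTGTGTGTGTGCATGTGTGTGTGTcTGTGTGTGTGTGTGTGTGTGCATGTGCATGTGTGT
Pdzd2 (chr15:12632172-12632430, plus strand): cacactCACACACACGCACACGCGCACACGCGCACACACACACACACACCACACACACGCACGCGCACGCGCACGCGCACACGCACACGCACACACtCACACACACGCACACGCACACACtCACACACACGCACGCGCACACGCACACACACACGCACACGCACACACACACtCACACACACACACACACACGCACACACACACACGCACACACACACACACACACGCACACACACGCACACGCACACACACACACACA

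All 9 loci had a peak in both 491K lists, and with 100K cells 7 had one against IgG and 8 against input. The highest-scoring peak of each window in the IgG-controlled 491K list is called its main peak. The score of a peak is read here as 10 times the −log10 q-value of the peak caller, and it depends on the library and its control, so only ranks within a list are set side by side. The 9 main peaks scored between 522 and 2114 with a median of 908, while the whole list had a median of 112.

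Spg11, which encodes spatacsin, a protein of lysosome recycling that is mutated in hereditary spastic paraplegia, had the highest score of the 9. It was 2114 against IgG and 2414 against input with 491K cells, ranks 6 of 897 and 60 of 2043. With 100K cells the Spg11 peak scored 34 against IgG, and 2 separate peaks of scores 40 and 105 lay over the same site against input. Spg11 was the only one of the 9 loci whose main peak was overlapped by 2 peaks of another list.

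Src encodes a membrane-associated tyrosine kinase. Its peak scored 757 and 1341 with 491K cells and 21 and 153 with 100K cells, against IgG and input respectively. Pcdh7, a protocadherin of cell adhesion, scored 908 and 1138 with 491K cells and 42 and 153 with 100K cells. Itsn2, an intersectin scaffold of endocytosis, scored 878 and 915 with 491K cells and 59 and 71 with 100K cells. In these 3 loci a peak lay at the same site in all 4 lists, but against input with 100K cells they ranked only 302, 302 and 487 of 630.

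Gpr160, an orphan G protein-coupled receptor gene, and Serpinb1b, of the clade B serine protease inhibitors, were the other loci with a peak over the main peak in every list. Gpr160 scored 1119 and 1475 with 491K cells and 50 and 117 with 100K cells. Serpinb1b scored 1076 and 1097 with 491K cells but 20 and 24 with 100K cells, ranks 17 of 18 and 622 of 630. In the IgG-controlled 491K list its rank was 23 of 897. The lists differ in length, libraries and controls, so no change in standing is read from these ranks.

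The other three loci lacked a peak in at least 1 list. Hhat, the acyltransferase that attaches palmitate to hedgehog proteins, scored 1161 and 1417 with 491K cells and 59 against IgG with 100K cells, and had no peak against input with 100K cells. Pdzd2, a protein of multiple PDZ domains, scored 573 and 669 with 491K cells and 30 against input with 100K cells, and had none against IgG. Plekhh2, a protein with pleckstrin homology, MyTH4 and FERM domains, scored 522 and 584 with 491K cells and had no peak over its main site with 100K cells.

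**Figure D1:**
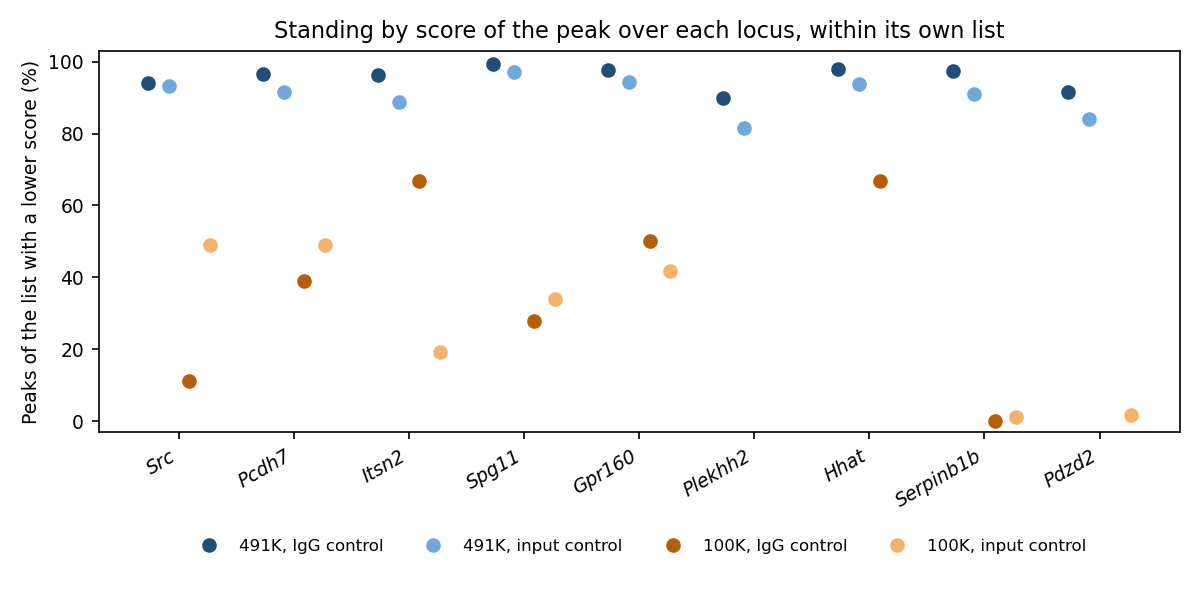
Standing of each locus within each peak list. The vertical axis is the percent of the list's peaks with a lower score, each point is the highest-scoring peak over the main peak of the locus, and a missing point means no such peak. In the IgG-controlled 491K list the 9 loci rank between 6 and 90 of 897, and Serpinb1b ranks 17 of 18 and 622 of 630 in the 100K lists.

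The recurrence of these sites with 100K cells is read against the whole list. Of all 897 IgG-controlled 491K peaks, 99.4% overlapped a peak of the input-controlled 491K list by at least 1 bp, 2.01% one of the IgG-controlled 100K list and 37.3% one of the input-controlled 100K list. The main peaks of the 9 loci were overlapped in 9, 7 and 7 cases. High-scoring peaks recurred more often in both 100K lists, and wide peaks did so mainly in the IgG-controlled one. Among the 91 peaks that scored at least 522, 16.5% overlapped an IgG-controlled and 78% an input-controlled 100K peak, and among the 152 peaks at least 553 bp wide the shares were 10.5% and 40.8%. The loci were chosen with these overlaps known, so nothing is read from the count against IgG, and the count of 7 of 9 in the input-controlled list stood at the share of peaks of like score.

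The windows also held peaks away from the main sites. At Hhat a further peak of 797 bp (chr1:192669618-192670414) scored 611 against IgG and 545 against input with 491K cells, and it ended 182 bp before the main peak. A further 2 peaks were in the input-controlled 491K list alone, at chr1:192491234-192491358 over the neighboring gene Kcnh1 (score 116) and at chr1:192728613-192728759 within Hhat (score 179). At Plekhh2 a narrow peak of 166 bp (chr17:84582535-84582700) scored 1190 against input with 491K cells, above the 584 of the main site in the same list. It was the only Plekhh2 peak with 100K cells (score 360 against input) and was in neither IgG-controlled list.

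Of the 9 main peaks, 8 were centered in an intron of the coding transcript with the longest coding sequence (GENCODE vM21). These were intron 2 of 14 in Src (chr2:157445003-157445732), intron 1 of 2 in Pcdh7 (chr5:57759190-57760161), intron 29 of 39 in Itsn2 (chr12:4694674-4695658) and intron 21 of 39 in Spg11 (chr2:122079184-122080320). The others were intron 2 of 3 in Gpr160 (chr3:30883364-30884742), intron 27 of 29 in Plekhh2 (chr17:84613136-84614664), intron 8 of 11 in Hhat (chr1:192670597-192671459) and intron 3 of 6 in Serpinb1b (chr13:33088012-33089436). The Pdzd2 peak (chr15:12631987-12632539) was inside the annotated gene, 39.7 kb upstream of the start of that transcript. The windows were drawn around genes, so a place inside a gene followed largely from the choice of the loci. Shares of the whole list in introns, at transcript starts or over UTRs are not given here. Nothing is therefore read from this count or from those of the next paragraph.

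None of the 9 main peaks was centered at the start of that transcript. The centers lay 4.60 kb downstream of the transcript start in Serpinb1b, 21.1 kb in Src, 28.1 kb in Gpr160, 38.6 kb in Spg11, 41.7 kb in Pcdh7, 100.2 kb in Hhat and 102 kb in Plekhh2 and Itsn2. No member peak overlapped a UTR, and of the main peaks that of Spg11 also touched an annotated exon. A second annotated gene, AC132353.2, lay over the Plekhh2 peaks.

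For comparison, values are given for other loci named in the study, Cngb3, Tshz2, Shq1, Mxi1 and Dhx35, which were grouped here by their longer perfect runs. The study displayed Pdzd2 together with them, as regions with less methylation in Zbtb43-mutant sperm that overlapped ZBTB43 peaks. The longest perfect run measured 21 bp at Hhat, 30 bp at Pcdh7, 31 bp at Src and at Spg11, 41 bp at Itsn2, 45 bp at Serpinb1b, 57 bp at Plekhh2, 95 bp at Pdzd2 and 101 bp at Gpr160. The lowest value of the comparison loci was 259 bp at Mxi1 and the highest 423 bp at Shq1. These values belong to the choice of the loci. Short held only against that group, however: the 897 peaks of the list had a median longest run of 45 bp with quartiles of 29 and 119 bp, and 3 of the 9 loci were above the median. A run of at least 20 bp was in 9 of 9 main peaks and in 88.1% of the list.

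The main peaks held a series of runs in place of a single long one, and most runs were short except at Gpr160 and Pdzd2. Runs of at least 10 bp numbered 9 at Pdzd2, 21 at Gpr160, between 29 and 36 at Itsn2, Src, Pcdh7, Serpinb1b and Spg11, 40 at Hhat and 46 at Plekhh2, where the list median was 6. The comparison loci had 1 to 6 such runs, which is likewise tied to their grouping by longer perfect runs. Added up, the runs covered 404 bp at Pdzd2 to 1173 bp at Gpr160, the middle value being 513 bp, and 198 bp was the list median. All 9 loci were above the list medians of both measures, which count more in wider peaks, and their main peaks were 553 to 1529 bp wide with a median of 985 bp where the list median was 255 bp.

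To measure the repeat without demanding perfection, an interrupted array was taken as the stretch of the peak with the highest sum when each alternating step added 1 and each broken step took 3 away. A step is a pair of neighboring bases. The arrays were 411 bp at Pdzd2, 546 bp at Src, 568 bp at Itsn2, 697 bp at Pcdh7, 717 bp at Hhat, 738 bp at Spg11, 1217 bp at Gpr160, 1314 bp at Serpinb1b and 1368 bp at Plekhh2. Those of Plekhh2, Serpinb1b and Gpr160 ranked 2, 3 and 5 of 897. All 9 exceeded the list median of 218 bp and were at least 200 bp long, as were 55.1% of the list. An array cannot be longer than its peak, and all 9 peaks were wide. As a share of the peak the array was 57.7% to 92.2%, with 0 of the 9 above the list median of 94.4%. The arrays of the comparison loci ran from 362 bp at Dhx35 to 769 bp at Mxi1, within the range of the 9 apart from Dhx35 and Cngb3 (375 bp).

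**Figure D2:**
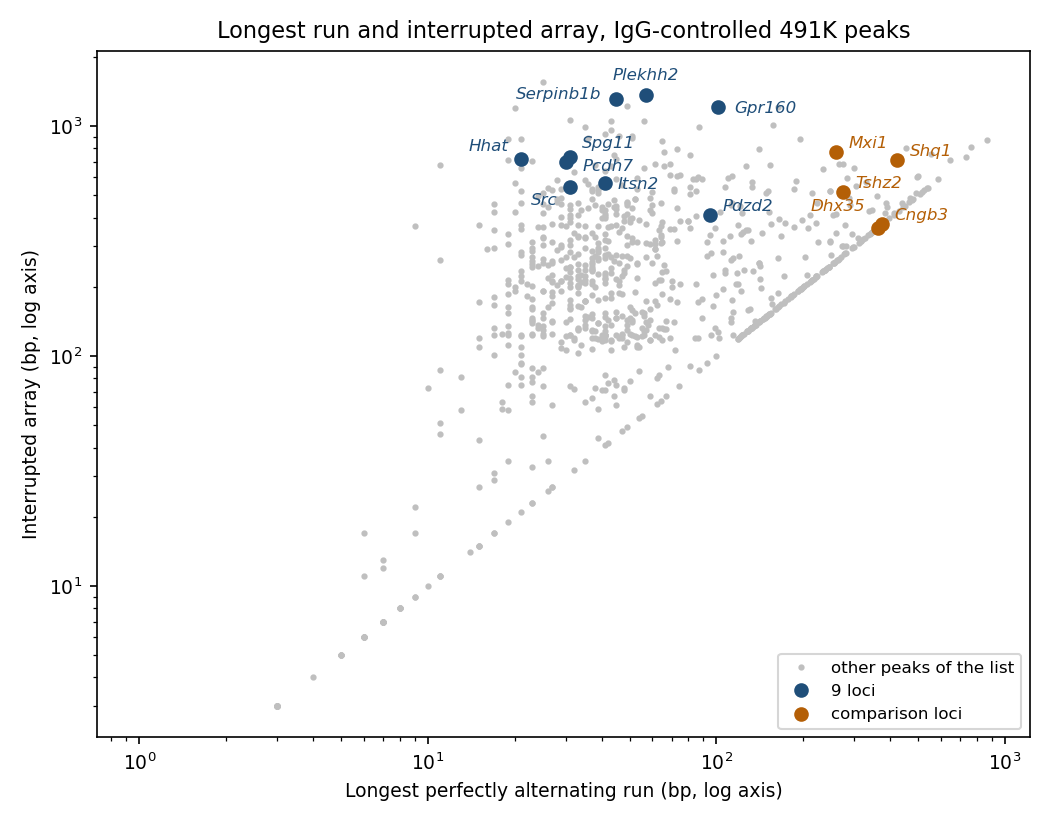
Longest perfectly alternating run (horizontal, bp, log axis) against the interrupted array (vertical, bp, log axis) for the 897 peaks of the IgG-controlled 491K list, except 7 with an array of 0 bp that a log axis cannot show. Gray points are other peaks, blue points the 9 loci and orange points the comparison loci. The 9 loci have runs of 21 to 101 bp within arrays of 411 to 1368 bp.

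Among the 9, the Hhat array had the smallest share of alternating steps and depended most on its definition. With 4 in place of 3 subtracted per broken step it shrank from 717 to 33 bp, whereas the other 8 arrays lay between 411 and 1353 bp. When the search was widened by 1000 bp on each side of the main peak, 8 arrays kept their length and that of Hhat grew to 1637 bp (chr1:192669695-192671331). The widened array ran through the gap of 182 bp and through most of the second Hhat peak, so that both peaks lay along 1 repeat. Read-length windows of 150 bp occurred only once in the assembled chromosomes for 100% of the main peak at 8 loci and for 81.1% at Hhat, while 95.4% of the 689 list peaks that hold such a window were wholly unique.

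The peaks were placed differently along the arrays with the 2 cell numbers. At each of the 9 loci the input-controlled 491K peak over the main peak covered the whole array. In the list, 93.7% of such peaks over arrays of at least 200 bp did so. Against IgG the 491K main peaks reached from 3 bp at Serpinb1b to 249 bp at Spg11 beyond the left end of the array and from 45 bp at Plekhh2 to 217 bp at Itsn2 beyond the right end. The array was sought within these peaks and could not extend past them, but the widened search found no further array except at Hhat.

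All 7 IgG-controlled 100K peaks lay wholly inside the array. They were 149 to 389 bp wide and covered 12.5% of the array at Serpinb1b, 21.4% at Pcdh7, 22.9% at Hhat, 30.2% at Gpr160, 34.3% at Itsn2, 43.8% at Src and 52.7% at Spg11. Of the 8 input-controlled 100K peaks at these sites 7 were wholly inside, and the Pcdh7 peak passed the left end by 9 bp. This placement was shared by the list: 100% of the 17 IgG-controlled 100K peaks over an array of at least 200 bp, 56.8% of the 199 input-controlled 100K peaks and 3.45% of the 493 input-controlled 491K peaks were wholly inside. These shares include the peaks of the loci described here, which were 7 of the 17. The IgG-controlled 100K peak held the longest run of its locus at Itsn2 and Spg11 and part of it at Gpr160, and lay apart from it at Src, Pcdh7, Hhat and Serpinb1b.

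**Figure D3:**
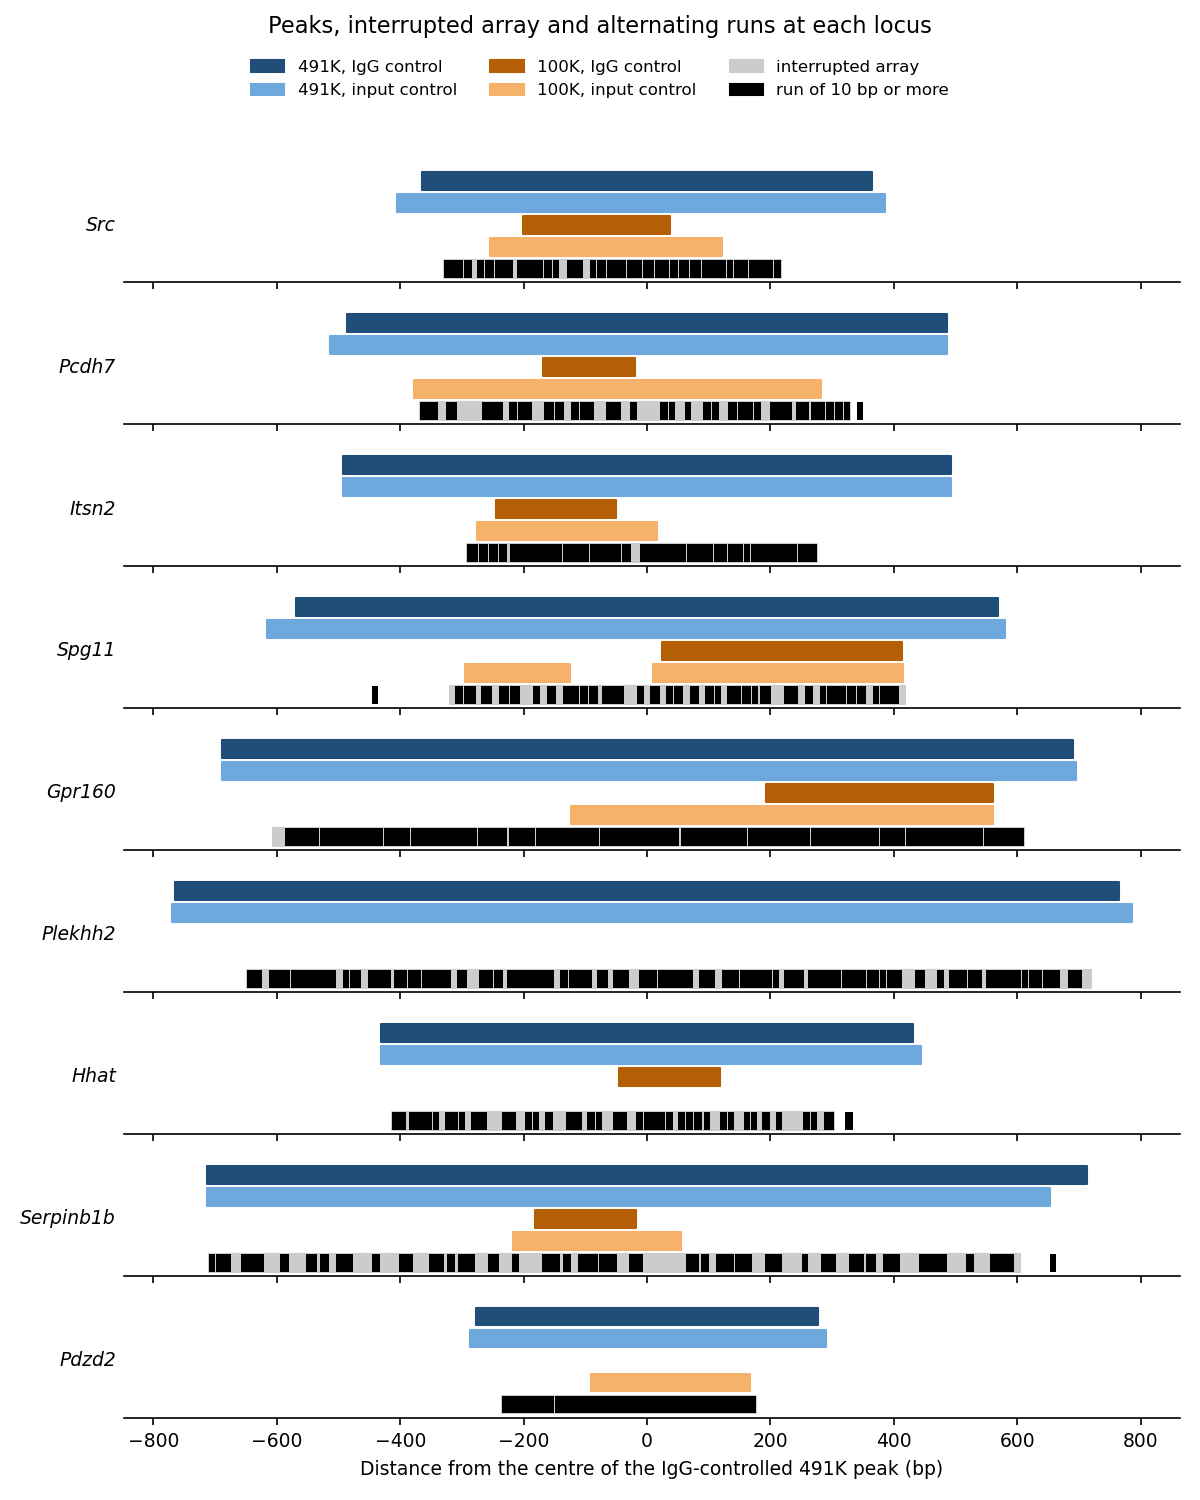
Peaks, interrupted array and runs at the 9 loci against the distance from the center of the main peak (bp). Colored bars are the peaks of the 4 lists, the gray bar the array and black bars the runs of at least 10 bp. The 491K bars extend past the array on both sides, and the 100K bars lie within it apart from 9 bp at Pcdh7.

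The arrays were made of alternation that was often broken, except at Gpr160 and Pdzd2, where breaks were sparse. Alternating steps made up 79.1% of the array at Hhat, 82.1% at Spg11, 83.2% at Pcdh7 and at Serpinb1b, 87.2% at Src, 89.1% at Plekhh2, 89.2% at Itsn2, 96.1% at Gpr160 and 96.3% at Pdzd2. The list median was 93.8%. Breaks numbered 8 at Pdzd2, 22 at Gpr160, 31 at Itsn2, 35 at Src, 55 at Spg11, 58 at Pcdh7, 77 at Plekhh2, 78 at Hhat and 169 at Serpinb1b, which was the highest number in the list. The list median was 5 breaks, and a longer array has room for more of them. The array length per break was 51.4 bp at Pdzd2 and 55.3 bp at Gpr160. At the other loci it ran from 7.78 bp at Serpinb1b to 18.3 bp at Itsn2. The median over the list's arrays of at least 200 bp was 23.95 bp. The comparison loci had 0 to 5 breaks, a number tied to their grouping by longer perfect runs.

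At 7 of the 9 loci the same kind of break was the most frequent. Read on the strand richer in A and C, it was a T in the place of an A, giving CTC within CACACA, and it leaves the later bases in their places. Src had 35 breaks and all 35 were of this kind, Spg11 had 44 of 55, Pcdh7 49 of 58, Itsn2 29 of 31, Hhat 60 of 78, Plekhh2 43 of 77 and Pdzd2 7 of 8. The lone a between capitals in the printed sequences of Src and Pcdh7 is this T seen from the other strand. The break was also the commonest in the list at large: over the 494 arrays of at least 200 bp, 82.2% of 9001 breaks were of 1 base, and 68.5% of those were CTC.

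Gpr160 and Serpinb1b were the exceptions. At Gpr160 none of the 20 breaks of 1 base was CTC and 19 were AGA, a G in the place of a C on the A- and C-rich strand, which made up 12.3% of the breaks of 1 base in the list. Hhat carried both kinds, with 12 AGA beside its 60 CTC. At Serpinb1b 139 of 169 breaks were a single broken step, at which a base is doubled or another of its class is added and the register shifts, and 54 of these were AA and 56 CC. Single broken steps numbered at most 6 at each of the other loci. At Itsn2 and Pdzd2 the 1 such step lay near the middle of the array, so that 51.4% and 53.5% of the bases were in the commoner of the 2 registers, compared with 82.6% to 98.0% at the other 7 loci.

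**Figure D4:**
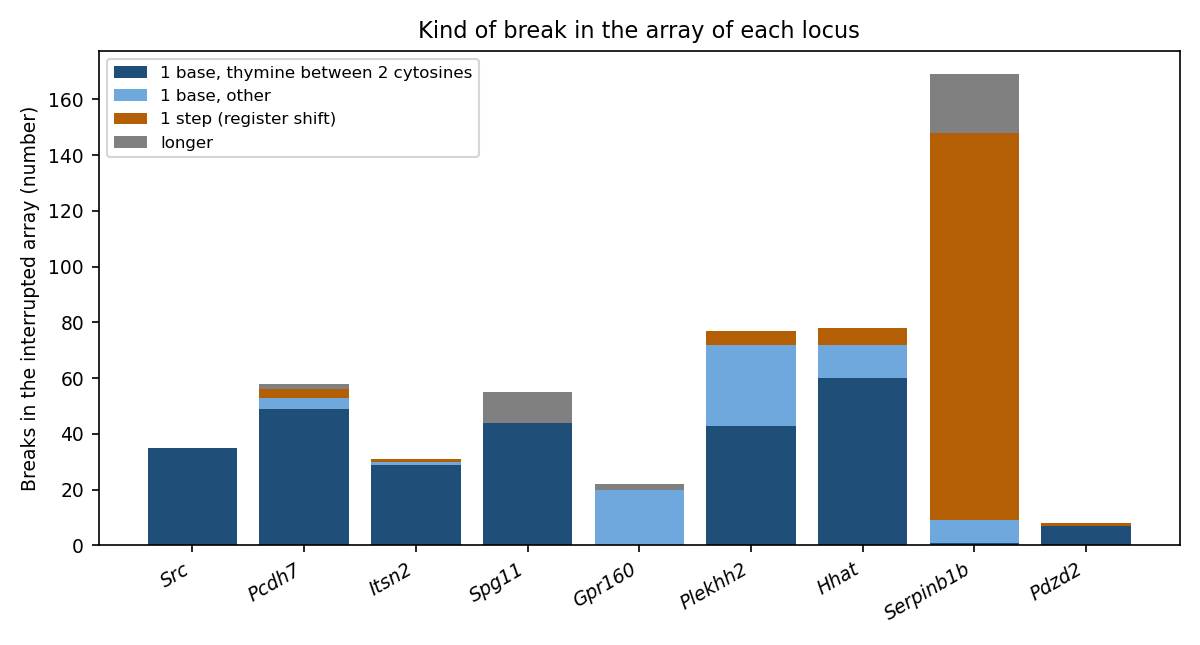
Number of breaks in the interrupted array of each locus, by kind, read on the strand richer in A and C. The bar of Serpinb1b consists mostly of register shifts (139 of 169), Gpr160 lacks the kind with a thymine between 2 cytosines, and in the other 7 loci that kind is the largest part of the bar.

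The alternating steps were largely CA, AC, TG or GT, from 70.6% of all steps in the Plekhh2 array to 84.2% at Gpr160. CG and GC steps were counted together and differed widely among the loci. They made up 22.9% of steps at Pdzd2, 7.98% at Gpr160 and 6.14% at Plekhh2, and at most 1.28% at the other 6 loci. The Spg11 and Hhat arrays had none. DNA methylation in mammals takes place at CG. Counted alone, CG numbered 47 in the Pdzd2 array, 26 at Gpr160, 21 at Plekhh2 and at most 3 at the other 6 loci. In the comparison loci CG and GC steps were 19.8% to 30.7%, and of the 9 only Pdzd2 was within that range. The study displayed Pdzd2 and the comparison loci as examples of regions with less methylation in Zbtb43-mutant sperm. By the study's account, its methylation assay prefers denser methylated CG. Methylation was not analysed here, and whether tract length or CG content bears on it was not tested. The displayed regions were examples, so nothing is read about methylation at the other loci. TA and AT steps together were most frequent at Plekhh2 with 12.4% and absent from the Pdzd2 array.

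Counted over the whole main peak, CG dinucleotides numbered 49 at Pdzd2, 27 at Gpr160, 21 at Plekhh2, 8 at Spg11, 6 at Itsn2, 2 at Src and Serpinb1b and 1 at Pcdh7 and Hhat. The list median was 0, so a single CG was enough to exceed it, as all 9 loci did. The count also grows with the width of the peak. Per kb, CG ran from 1.03 at Pcdh7 to 88.6 at Pdzd2, with a median of 6.09 over the 9 loci. GC content ran from 44.7% at Plekhh2 to 57.7% at Pdzd2, and between 76.0% and 92.5% of each peak was marked as repeat in the genome, below the list median of 100%.

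**Figure D5:**
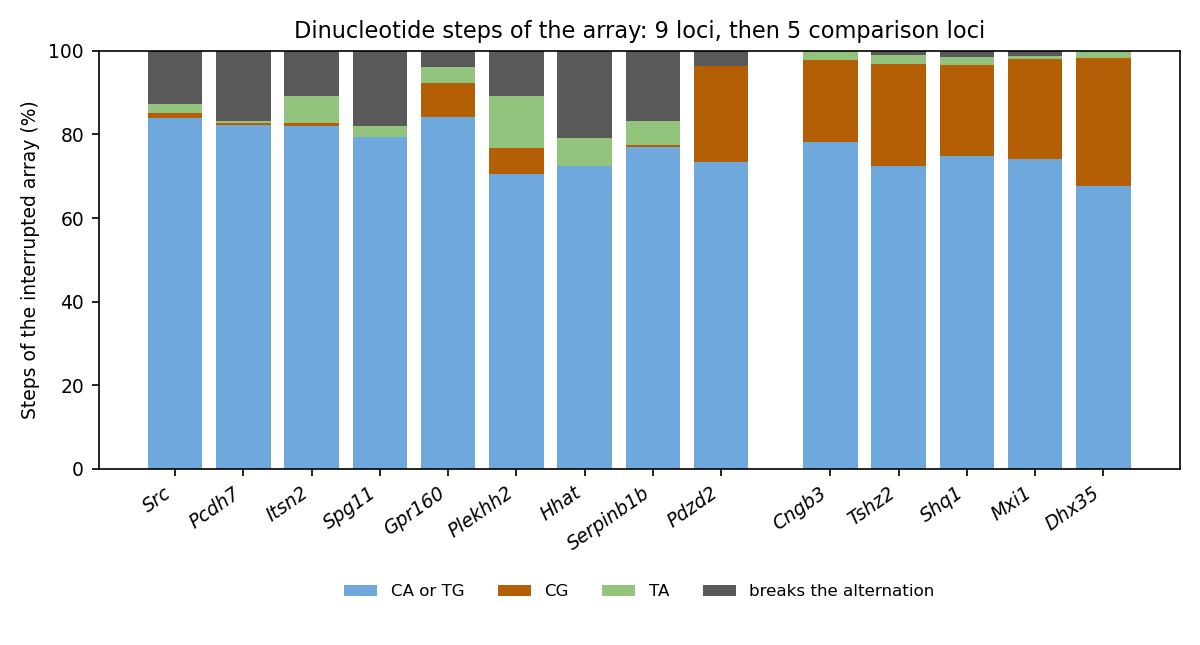
Dinucleotide steps in the interrupted array as percent of all its steps, for the 9 loci and, after the gap, the 5 comparison loci. The class marked CG joins CG and GC, that marked CA or TG also holds AC and GT, and that marked TA also holds AT. CG and GC steps together reach 22.9% at Pdzd2 and 7.98% at Gpr160, compared with 19.8% to 30.7% in the comparison loci. In the comparison loci at least 98.6% of steps alternate, a share tied to their grouping by longer perfect runs.

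Tandem repeats of the simplest kind were present in most of the loci. At least 10 tandem CA dinucleotides, counted in either phase and on either strand, were found in 8 of 9 main peaks and in 74.4% of the list. The longest such tracts were 19 dinucleotides at Serpinb1b and Pdzd2, 15 at Pcdh7 and Itsn2, 13 at Src and Spg11, 12 at Gpr160 and 10 at Hhat, and Plekhh2 had 6. At least 2 tandem CACG units, in any phase on either strand, were found at Gpr160, Plekhh2 and Pdzd2, which are 3 of 9 loci, and in 11.3% of the list. None of the 3 had more than 2 such units in tandem. Wide peaks such as these have more room for either tract, so the counts are not read as a difference from the list.

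The longest run did not mark the center of the peak. It lay 129 bp from the center at Pdzd2, 188 bp at Itsn2, 214 bp at Gpr160 and between 313.5 and 532 bp at the other 6 loci, where the list median was 54 bp. The wide peaks of these loci leave room for larger distances. Pcdh7, Src, Itsn2, Hhat and Plekhh2 had it to the left of the center and Spg11, Gpr160, Serpinb1b and Pdzd2 to the right in genome coordinates. The repeat was A- and C-rich on the plus strand at Spg11, Plekhh2, Serpinb1b and Pdzd2 and on the minus strand at the other 5.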

How the data were processed

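ChIP–seq libraries of ZBTB43, IgG and input were prepared from sorted 15.5 dpc prospermatogonia. Per the labels and the methods of the study, reads were trimmed with Trim Galore 0.6.0, aligned with BWA 0.7.17 to mm10 and filtered at mapping quality 30, and peaks were called per library with MACS2 2.2.7.1 at q-value 0.05 against IgG or input. The score deposited by the authors for each peak was read as 10 × −log10 q-value cut to a whole number, since the lowest scores match that threshold. Depth per library was not analysed here.

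Groups were taken from the labels. Sequence was read from GRCm38 (pysam 0.24.0), whose chromosomes hold all 3588 peaks, and genes from GENCODE vM21. The 9 loci, their windows, the comparison loci and the tract definitions were chosen with earlier results of these data known, and the interrupted array (1 added per alternating step, 3 subtracted per broken step) was added after the data were seen. The text names all 9 loci, each with its highest-scoring IgG-controlled 491K peak as main peak. Overlap meant at least 1 bp. With 1 library per group no test was run. Stretches of sequence are not reported here for 3 loci. Functions were tested on simulated sequences. Alternatives covered the score, window, overlap, run, tract and array definitions.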

Additional observations from a re-analysis of the deposited data

How the results depend on the processing

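Of 34 alternative settings, 29 left the count concerned within 1.5 times its value and 5 did not. At the edge of that limit, loci with an alternating run of at least 20 bp fell from 9 to 6 when only the central 200 bp were searched. With a reciprocal overlap of at least 50% in place of 1 bp, the loci whose main peak was matched with 100K cells fell from 7 to 0 against IgG and from 7 to 2 against input. The 100K peaks against IgG were 149 to 389 bp wide and the main peaks 553 to 1529 bp. With at least 15 in place of 10 tandem CA dinucleotides, 4 in place of 8 loci held a tract, and with at least 3 or 4 in place of 2 CACG units, 0 in place of 3 did. The array penalty and the widened search were chosen after seeing the data, and 9 loci at a penalty of 2 and 8 at a penalty of 4 held an array of at least 200 bp. No paired analysis was possible because there was a single library for every group, which also leaves no replicate to omit. Peak lists give no depth, so an absent 100K peak does not show that ZBTB43 was absent.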
